A study of Mus musculus with 24 samples.

Results

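The genes described here are 9 genes of the endothelium, the cell layer that lines blood vessels, and of its precursors. They are Etv2, Kdr, Flt1, Tek, Tie1, Cdh5, Pecam1, Eng and Cd34, which are 9 of the 19938 genes measured. They were chosen by name, and each was read from a probe set annotated to its symbol alone. All 9 were found, each with 1 such probe set. The RNA came from embryoid bodies (EBs), clumps of differentiating embryonic stem (ES) cells, of the single mouse ES line 46C, which has a GFP reporter in its Sox1 locus. Treated EBs were given FK506 at 100 ng/ml together with cyclosporin A at 1 ug/ml from day 3 to day 8, and untreated EBs were given neither drug. Both drugs block calcineurin, a phosphatase switched on by calcium, through which NFAT factors reach the nucleus, and no group received 1 of the drugs alone. Treated and untreated EBs were each collected at days 4, 6, 8 and 12, with 3 arrays per group from 3 independent experiments, 24 arrays in all. Day 12 therefore lies 4 days after the drugs were withdrawn. All groups shared the start on gelatin with LIF, the later culture in low attachment dishes, the plating, and the serum-free medium from day 8.

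The values are log2 signals of Affymetrix Mouse Gene ST arrays, normalised by robust multiarray average (RMA), so a difference of 1 is a doubling of signal. A signal can be compared between samples for 1 probe set, but not between probe sets. Group values are given as mean ± SD over 3 arrays, differences are treated minus untreated with their SE, and adjusted p-values come from limma over all 19938 genes. A gene passed the test where its adjusted p lay under 0.05. In that fit each gene has 1 spread shared by all 8 groups, so its SE does not follow the spread at a single day. The RNA is that of whole EBs, in which fewer cells of a type and less RNA per cell cannot be told apart. The values carry no detection calls, and whether the lower signals exceed background is not known. The median signal of an array lay between 8.14 and 8.32. Same-numbered arrays of the treated and untreated EBs deviated together at days 6, 8 and 12 and were taken as pairs there. The pairs enter only the differences by replicate number and the fits with a replicate block. All other SEs and adjusted p-values ignore them.

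Vessels begin in mesoderm. Cells of the lateral and extraembryonic mesoderm take up the VEGF receptor encoded by Kdr, pass under control of the ETS transcription factor Etv2, and then switch on the junction proteins and receptor kinases of the vessel wall. EBs form such vessel-lining cells spontaneously in serum. Several of the 9 genes are not restricted to endothelium. Kdr also marks mesoderm that goes on to heart and muscle, Pecam1 is also found on mouse ES cells, Cd34 and Eng also mark blood progenitors, and Etv2 is needed for blood as well as for vessels.

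In the mouse genome build GRCm38.p6 the genes lie on 7 chromosomes. Etv2 lies at chr7:30633616-30636509, Kdr at chr5:75932827-75979072 and Flt1 at chr5:147561604-147726438. Tek lies at chr4:94739086-94874976 and Tie1 at chr4:118471191-118489849. Cdh5 lies at chr8:104101613-104144504 and Pecam1 at chr11:106654213-106715281. Eng lies at chr2:32646595-32682669 and Cd34 at chr1:194938821-194961292. The genome thus holds Kdr and Flt1 on 1 chromosome, and Tek and Tie1 on another, at distant sites.

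Promoter sequence was looked up for all 9 genes in a RefSeq table of build GRCm38.p6, where 7 of them matched. The 150 bases before the table's start site (which for Etv2, Kdr, Flt1 and Tek lie inside the annotated span of the gene, so that part of them may be transcribed) were searched on both strands for the ETS core GGAA, the 4 letters shared by the binding motifs of ETS factors such as Etv2. The core was found in all 7 windows, 2 times each in Kdr, Tek, Eng and Cd34, 3 times in Tie1, 4 times in Flt1 and 7 times in Etv2. It is a common word: 80.8% of the 32851 windows in the table hold it, with a median of 2 matches. The 3 windows of Tie1, Eng and Cd34 are printed because they end exactly where the annotated gene begins, and because Eng and Cd34 passed the treatment test at day 8, where Tie1 missed it narrowly. They run 5′ to 3′ on the strand of the gene, with each match of GGAA, or of its complement TTCC, in capitals. The Tie1 window is chr4:118489850-118489999 on the minus strand, the Eng window chr2:32646445-32646594 on the plus strand and the Cd34 window chr1:194938671-194938820 on the plus strand.
Tie1: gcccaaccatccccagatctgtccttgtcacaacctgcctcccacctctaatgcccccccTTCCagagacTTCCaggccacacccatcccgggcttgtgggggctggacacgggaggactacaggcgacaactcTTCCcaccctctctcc
Eng: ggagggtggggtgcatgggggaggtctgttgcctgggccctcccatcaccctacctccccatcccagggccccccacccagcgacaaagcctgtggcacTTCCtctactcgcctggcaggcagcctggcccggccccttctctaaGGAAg
Cd34: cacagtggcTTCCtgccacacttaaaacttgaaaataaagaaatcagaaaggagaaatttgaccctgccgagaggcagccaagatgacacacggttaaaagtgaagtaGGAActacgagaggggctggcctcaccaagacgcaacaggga
A longer ETS word (CGGAAG, in 10.4% of all windows), a GATA word (AGATAA, 5.65%) and a forkhead word (TGTTTA, 6.93%) were found in 0 of the 7 windows. The NFAT core TGGAAA (10.8% of all windows), which contains the ETS core, matched once, in Etv2. The TATA word TATAAA (7.57%) matched once, in Flt1. These matches describe the letters and are not shown to be binding sites.

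The genes did not share 1 time course (plot of signal by day). In the course from day 4 to day 12 the largest change was that of Kdr in treated EBs, where it rose by 4.09 (SE 0.28, limma adjusted p = 5.01e-11), 17.0-fold, and in untreated EBs it rose by 2.60, 6.05-fold. Cdh5, which encodes VE-cadherin, the adhesion protein of endothelial junctions, rose by 3.67 in treated and by 3.29 in untreated EBs, 12.7-fold and 9.80-fold. Tek, Tie1, Cd34 and Flt1 also rose over these days in both arms, by 0.60 to 1.59. Etv2 was lower at day 12 than at day 4 in untreated EBs (-1.09, adjusted p = 0.000162), and its difference of -0.30 in treated EBs did not pass the test. Eng fell by 0.33 in untreated EBs and Pecam1 fell by 0.33 in treated EBs. The Tek call in untreated EBs was lost with quantile normalisation, under the trend with robust prior, and without untreated day 4 replicate 1 or untreated day 12 replicate 2 or 3. That of Eng was lost without untreated day 4 replicate 2 or 3 or untreated day 12 replicate 1 or 3, and that of Pecam1 without treated day 4 replicate 1 or treated day 12 replicate 3. Of the 9 genes, 7 passed in treated EBs, where 55.0% of all genes did, and 8 passed in untreated EBs, where 57.2% of all genes did.

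**Figure D1:**
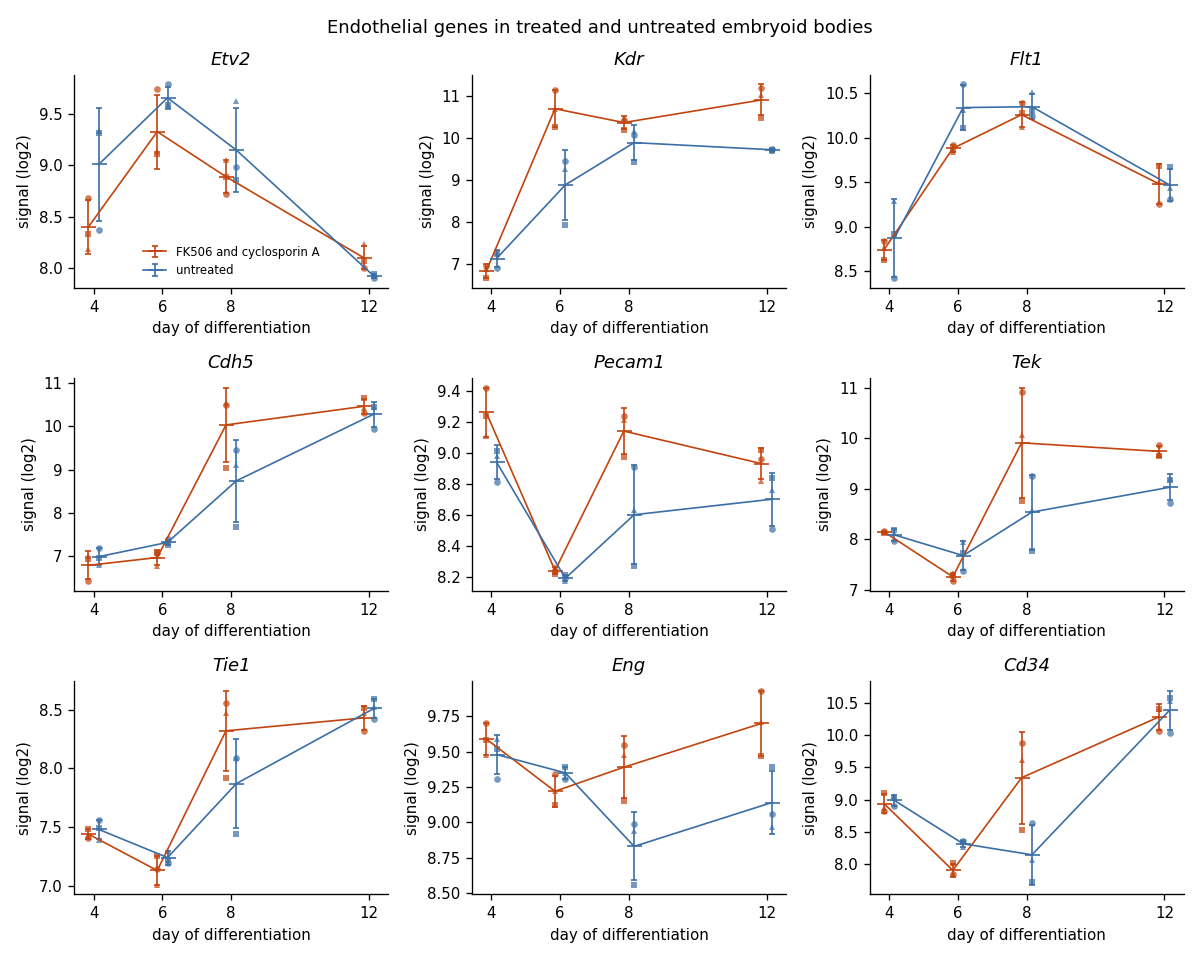
Signal of each of the 9 genes (log2) against the day of differentiation, in EBs treated with FK506 and cyclosporin A and in untreated EBs. Small symbols are arrays (circle, square and triangle for replicates 1, 2 and 3), dashes and bars are the mean and SD of 3 arrays, and points are set slightly apart within a day; at day 6 the 3 treated arrays of Kdr lie between 10.26 and 11.14, above the untreated ones.

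The courses fell into steps. Between days 4 and 6 the transcription factor Etv2 and the VEGF receptors Kdr and Flt1 rose in both arms, and Pecam1 and Cd34 fell in both. Kdr rose by 3.88 in treated EBs, 14.7-fold, and by 1.76 in untreated EBs, 3.39-fold. Tek and Eng also fell in treated EBs, by 0.89 and 0.36, which brought the genes that passed to 7 of 9 there, against 44.2% of all genes, and to 5 of 9 in untreated EBs, against 42.0% of all genes. Without untreated day 4 replicate 1 or untreated day 6 replicate 1, 3 genes passed in untreated EBs. The Cd34 call there was lost without any 1 of the 6 arrays compared (limma adjusted p from 0.0539 to 0.0766), and that of Etv2 with quantile normalisation or without either replicate 1. In treated EBs the Tek call was lost with quantile normalisation, under the trend with robust prior and without any 1 of the 6 arrays, and the Eng call without treated day 4 replicate 1 or 2 or treated day 6 replicate 2 or 3. The calls of Kdr, Flt1 and Pecam1 held in both arms under every alternative tried.

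Between days 6 and 8 the later genes of the vessel wall rose. In treated EBs Cdh5 rose by 3.06 (8.32-fold), Tek by 2.66 (6.31-fold), Cd34 by 1.42, Tie1 by 1.19 and Pecam1 by 0.90, 5 of the 9 genes, against 41.5% of all genes. In untreated EBs Cdh5 rose by 1.42 (2.67-fold), Kdr by 1.01, Tie1 by 0.63 and Pecam1 by 0.41, and Eng fell by 0.52, also 5 of 9, against 36.1% of all genes. Without untreated day 6 replicate 2 the Kdr difference in untreated EBs was 0.53 and no longer passed, nor did it in the fit of the compared groups alone, and without untreated day 8 replicate 1 that of Pecam1 was 0.25 and did not pass. Cd34, which rose in treated EBs in this step, had a difference of -0.18 in untreated EBs. That of Tek in untreated EBs was 0.86 (1.81-fold). It narrowly missed the threshold (limma adjusted p = 0.0582) and passed in 4 of 15 alternatives. Between days 8 and 12 Etv2 and Flt1 fell in both arms, Etv2 by 0.79 in treated and by 1.23 in untreated EBs. Cd34 rose in this step by 0.95 in treated and by 2.23 in untreated EBs, and Cdh5 and Tie1 rose in untreated EBs, by 1.54 and 0.64. In all, 3 of 9 genes passed in treated EBs, against 33.2% of all genes, and 5 of 9 in untreated EBs, against 38.7%. With replicate 2 left out of both arms of day 8, 5 genes passed in treated EBs, and in the fit of the compared groups alone Cd34 lost its call there (limma adjusted p = 0.0645).

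At day 4, 1 day into the treatment, 0 of the 9 genes passed the test, against 0.00502% of all genes, and 2 had an unadjusted p under 0.05. These were Etv2, with signals of 8.68, 8.33 and 8.18 in treated EBs, against 8.37, 9.32 and 9.34 in untreated EBs (difference -0.61, SE 0.22), and Pecam1, with 9.42, 9.24 and 9.11 in treated EBs, against 8.81, 9.01 and 8.98 in untreated EBs (0.32, SE 0.12). The treated arrays of Pecam1 all lay above the untreated ones, as did those of 8.19% of all genes. Their adjusted p-values in limma were 0.842 and 0.86. With array weights Etv2 passed, with a difference of -0.96 (adjusted p = 0.00181), and over its alternatives the adjusted p ran up to 1.

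At day 6 Kdr stood apart from the other 8 genes. Kdr encodes VEGFR2, the main signalling receptor for VEGF. Its signals were 11.14, 10.26 and 10.69 in treated EBs (10.70 ± 0.44), against 9.46, 7.93 and 9.26 in untreated EBs (8.88 ± 0.83, SD, n = 3 each). Every treated array lay above every untreated one, and replicate 2 was the lowest array of both arms. The difference was 1.82 (SE 0.28, 95% confidence interval 1.23 to 2.41), 3.52-fold, with a limma adjusted p of 0.00112. It passed under every alternative tried, with values from 1.34 to 2.10. Kdr was thus 1 of 9 genes that passed upwards, where 1.26% of all genes did, and 0 of 9 passed downwards, where 0.577% did.

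Of the other 8 genes at day 6, Pecam1 differed by 0.05 and the rest had differences below 0, of which none passed in limma (2 of the 9 genes had an unadjusted p under 0.05). Flt1, the VEGF receptor that binds VEGF tightly but signals weakly, had 9.92, 9.86 and 9.84 in treated EBs, against 10.60, 10.11 and 10.31 in untreated EBs (difference -0.46, SE 0.16, limma adjusted p = 0.179). Cd34, a sialomucin of the vessel and blood progenitor surface, had 7.85, 8.03 and 7.85 in treated EBs, against 8.36, 8.34 and 8.27 in untreated EBs (-0.41, SE 0.24). Its adjusted p was 0.529, 0.0426 with the replicate number as a block within day, and 0.0244 in the fit of the compared groups alone. Tek (-0.43), Cdh5 (-0.35) and Etv2 (-0.33) did not pass either, and the confidence interval of Tek, from -1.15 to 0.29, covered 0. That interval rests on the shared spread. The SD of Tek in treated and untreated EBs was 0.08 and 0.29 at day 6, and 1.09 and 0.74 at day 8. In Flt1, Cd34, Tek and Cdh5 all treated arrays lay below all untreated ones, 4 of 9 genes, against 9.44% of all genes. Kdr and Pecam1 did not overlap in the other direction, 2 of 9 against 12.1% of all genes. The median difference of the 9 genes was -0.33, and that of all genes 0.004. Tek and Cd34 had their lowest group means of the whole series in treated EBs at this day.

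**Figure D2:**
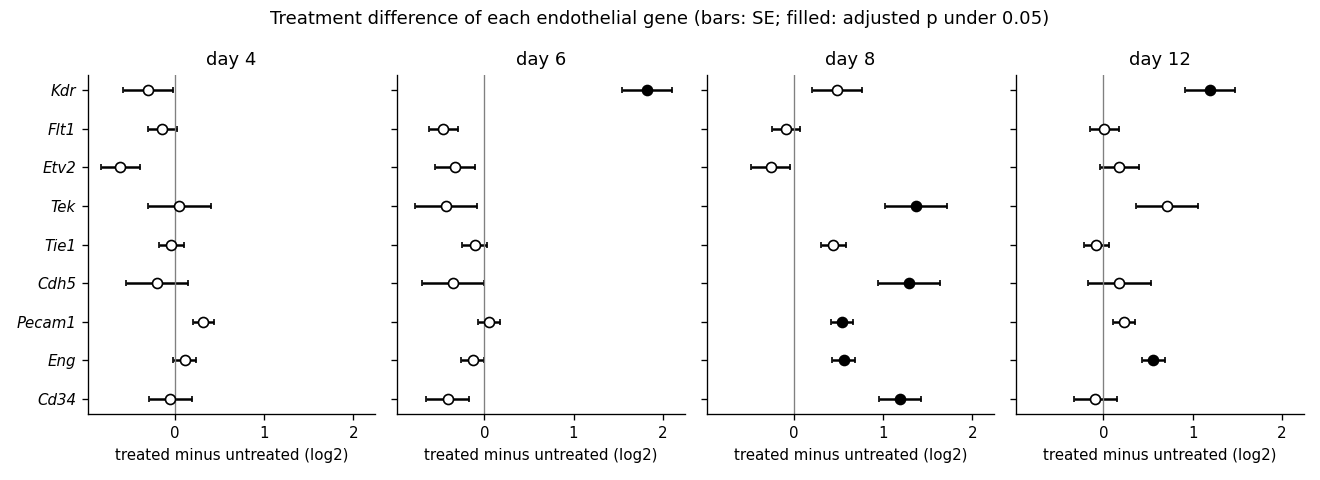
Treated minus untreated signal (log2) of each gene at days 4, 6, 8 and 12, with the SE from limma as bars and filled points where the adjusted p lay under 0.05. Kdr alone is filled at day 6, Tek, Cdh5, Pecam1, Eng and Cd34 at day 8, and Kdr and Eng at day 12.

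At day 8, the last day of treatment, 5 of the 9 genes were higher in treated EBs and 0 were lower, where 4.86% of all genes passed upwards and 4.08% downwards. These were the receptor kinase gene Tek, the junction genes Cdh5 and Pecam1, and the surface genes Eng and Cd34. Tek encodes TIE2, the receptor for angiopoietins. Its signals were 10.91, 8.75 and 10.07 in treated EBs (9.91 ± 1.09), against 9.26, 7.78 and 8.58 in untreated EBs (8.54 ± 0.74). Replicate 2 was the lowest array of each arm, and the arms overlapped because treated replicate 2 lay below untreated replicate 1. The difference was 1.37 (SE 0.35), 2.59-fold, with a limma adjusted p of 0.0166, and within the pairs of equal number it was 1.65, 0.97 and 1.49. Cdh5 had 10.5, 9.04 and 10.54 in treated EBs (10.03 ± 0.86), against 9.45, 7.67 and 9.10 in untreated EBs (8.74 ± 0.94). It was 2.44-fold higher (1.29, SE 0.35, adjusted p = 0.0234), by 1.05, 1.37 and 1.44 within the pairs. Again only the array of replicate 2 brought the treated range down into the untreated one.

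Cd34 had the smallest p of the 9 genes at day 8. Its signals were 9.87, 8.53 and 9.61 in treated EBs (9.34 ± 0.71), against 8.64, 7.73 and 8.07 in untreated EBs (8.15 ± 0.46). The difference was 1.19 (SE 0.24), 2.28-fold, with a limma adjusted p of 0.0042, and 1.24, 0.79 and 1.53 within the pairs. Pecam1, which encodes an adhesion molecule of endothelial cell contacts, had 9.24, 8.97 and 9.21 in treated EBs, against 8.91, 8.27 and 8.63 in untreated EBs (0.54, SE 0.12, adjusted p = 0.0083). Eng, which encodes endoglin, a co-receptor for certain BMP and other TGF-beta family ligands, had 9.55, 9.15 and 9.48 in treated EBs, against 8.99, 8.56 and 8.94 in untreated EBs (0.56, SE 0.13, adjusted p = 0.0112). The changes of Pecam1 and Eng were the smaller ones, 1.45-fold and 1.48-fold, but neither overlapped between the arms. Kdr was the other gene without overlap, so 3 of 9 genes lay wholly above, against 9.37% of all genes.

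Tie1, the orphan kinase that partners TIE2, had 8.56, 7.92 and 8.47 in treated EBs, against 8.09, 7.44 and 8.09 in untreated EBs. Its difference of 0.44 (SE 0.14) missed the threshold in limma (adjusted p = 0.0567). It was 0.47, 0.48 and 0.38 within the pairs and passed with the replicate number as a block within day (adjusted p = 0.000633). Thus 6 genes passed in that fit, for which no share of all genes is given. Over all alternatives its adjusted p ran from 0.000633 to 0.388. The earlier genes did not pass at day 8: Kdr had a difference of 0.48 (95% confidence interval -0.11 to 1.07), Etv2 of -0.26 (-0.71 to 0.19) and Flt1 of -0.09 (-0.43 to 0.24). The median difference of the 9 genes was 0.54, and that of all genes -0.044.

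These day 8 counts rest on few arrays. Replicate 2 was the lowest array of both arms in each of Kdr, Tek, Tie1, Cdh5, Pecam1, Eng and Cd34 (plot of day 8 arrays by replicate number). With replicate 2 left out of both arms, 6 genes passed, the differences being 1.25 for Cdh5, 1.57 for Tek and 1.38 for Cd34. Without treated replicate 1, 0 genes passed, without untreated replicate 2 only Cd34 passed, and without treated replicate 3 Pecam1 and Cd34 passed. In the fit of the day 8 arrays alone 0 genes passed, and 6 had an unadjusted p under 0.05. The direction of the 5 genes did not change in any of these fits, and no share of all genes is given for them.

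**Figure D3:**
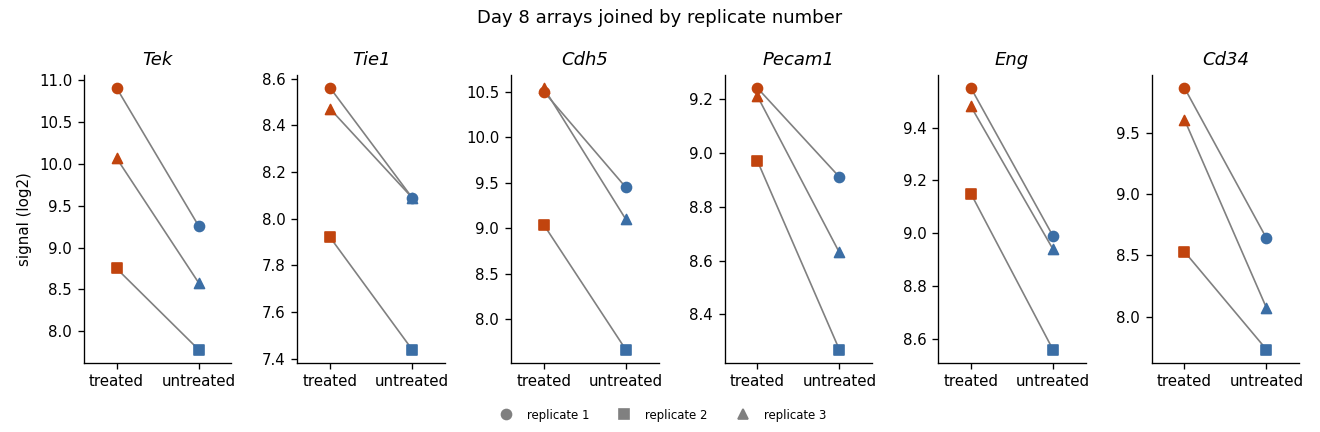
Signal (log2) of 6 genes at day 8 in the 3 treated and the 3 untreated arrays, with lines that join arrays of equal replicate number. All 18 lines fall towards the untreated side, and the squares, replicate 2, lie lowest in each arm.

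At day 12, after the drugs had been withdrawn, 2 of 9 genes were higher in treated EBs and 0 were lower, where 7.49% of all genes passed upwards and 10.4% downwards. Kdr had 11.19, 10.49 and 11.04 in treated EBs (10.91 ± 0.37), against 9.73, 9.72 and 9.70 in untreated EBs (9.72 ± 0.02). It was 2.28-fold higher (1.19, SE 0.28, limma adjusted p = 0.00514) with no overlap. Eng had 9.93, 9.47 and 9.71 in treated EBs, against 9.06, 9.39 and 8.97 in untreated EBs (0.56, SE 0.13, adjusted p = 0.0051). Its treated arrays also all lay above the untreated ones, most narrowly for treated replicate 2. Both genes passed under each alternative tried.

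Tek had 9.86, 9.65 and 9.71 in treated EBs at day 12, against 8.72, 9.17 and 9.19 in untreated EBs. The arms did not overlap, but the difference of 0.71 (SE 0.35) had a limma adjusted p of 0.176. That value fell to 0.00137 with the replicate block within day and to 0.00943 in the fit of the compared groups alone. Over its alternatives the adjusted p ran from 0.00137 to 0.372. Together with Etv2, whose difference was 0.18, 4 of 9 genes lay wholly above, against 15.4% of all genes. Cdh5, Tie1 and Cd34, which stood at their highest group means at day 12, had differences of 0.18, -0.08 and -0.09. The 95% confidence interval of Cd34 was -0.59 to 0.40 and that of Cdh5 -0.54 to 0.90. The change of the difference from day 8 to day 12 passed for Cd34 and did not for Cdh5 (-1.11, limma adjusted p = 0.186). The median difference of the 9 genes was 0.18, and that of all genes 0.016.

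The change of the treatment difference between neighbouring days was tested directly. For Kdr it was 2.12 (SE 0.40) between days 4 and 6, with a limma adjusted p of 0.0374, the only gene of the 9 to pass, where 0.0953% of all genes passed. For Cd34 it was 1.60 (SE 0.34, adjusted p = 0.0358) between days 6 and 8, where 0.401% of all genes passed, and -1.28 (SE 0.34, adjusted p = 0.0304) between days 8 and 12, where 5.2% did. The difference of Cd34 was thus -0.41 at day 6, 1.19 at day 8 and -0.09 at day 12, highest at day 8. Tek (1.80, SE 0.49, adjusted p = 0.111), Cdh5 (1.64, SE 0.49, 0.156) and Eng (0.69, SE 0.19, 0.112) did not pass between days 6 and 8. With the replicate block within day, 6 genes passed there: Cd34, Cdh5, Tek, Tie1 and Eng upwards, and Kdr downwards, by -1.33 (adjusted p = 0.00503). In the same fit Cd34, Cdh5, Tek and Tie1 passed downwards between days 8 and 12, and no share of all genes is given for that fit. Without 1 array these counts ran from 0 to 1 between days 4 and 6, from 0 to 5 between days 6 and 8 and from 0 to 4 between days 8 and 12, and the arrays are named in the section on processing choices. The 3 changes share the arrays of the day between them, so they are not independent of each other.

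Ranked over all 8 groups, the levels show which groups can be told apart. Kdr ran from 6.82 in treated EBs at day 4 to 10.91 in treated EBs at day 12, and its untreated groups of days 6, 12 and 8 (8.88, 9.72 and 9.89) lay below all 3 later treated groups (10.37 to 10.91), which overlapped one another. Tek was lowest in treated EBs at day 6 (7.26) and highest in treated EBs at day 8 (9.91), which overlapped with those of day 12 (9.74). Cdh5 formed a low set, days 4 and 6 of both arms, between 6.79 and 7.32, and a high set, days 8 and 12, between 8.74 and 10.46, whose neighbours overlapped. Cd34 was lowest in treated EBs at day 6 (7.91) and highest at day 12, where treated (10.28) and untreated EBs (10.38) overlapped.

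The remaining genes had narrower ranges. The group means of Pecam1 ran from 8.19 in untreated EBs at day 6 to 9.26 in treated EBs at day 4, so its highest mean came at the first day measured. Those of Eng ran from 8.83 in untreated EBs at day 8 to 9.70 in treated EBs at day 12, and each group overlapped with its neighbour in that order. Etv2 was highest at day 6 in both arms (9.33 in treated and 9.66 in untreated EBs) and lowest at day 12 (8.10 in treated and 7.92 in untreated EBs). Flt1 had its highest mean at day 8 in both arms (10.26 in treated and 10.35 in untreated EBs). In untreated EBs day 6 (10.34) overlapped with it, and in treated EBs the rise from day 6 did not pass (0.39, limma adjusted p = 0.0598). Tie1 ran from 7.13 in treated EBs at day 6 to 8.51 in untreated EBs at day 12.

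The genes of the vessel wall also varied together among replicates. Over the 24 arrays, after the mean of each group was taken away, Cdh5 and Tie1 had a Pearson correlation of 0.94, Tek and Cd34 of 0.88, Cdh5 and Cd34 of 0.85, and Cdh5 and Tek of 0.80. For Etv2 and Flt1 it was 0.61, and for Etv2 and Cdh5 0.04. These values are descriptions, since the arrays share experiments and days, and no such value of other genes is set beside them. The day 8 arrays, with their low replicate 2, weigh most in the values of the vessel wall genes. The SD of Cdh5 was 0.86 and 0.94 at day 8, in treated and untreated EBs, and 0.06 to 0.32 in the other groups. Among all other genes, those whose 8 group means followed Kdr most closely were Hs3st3b1 (r = 0.988), Pdgfra (0.982), Gata4 (0.981), Parvb (0.981) and C1qtnf12 (0.98), of which Pdgfra and Gata4 are known mesoderm and heart genes. For Cdh5 they were Flrt2 and Plat (both 0.992), and Elk3, Crebbp and Hsd11b2 (each 0.991), of which Elk3 encodes an ETS factor and Plat the plasminogen activator made by endothelium. For Pecam1 they were Gfod1 (0.979), Tnni3k (0.974), Dmbt1 (0.966), Havcr1 (0.962) and Pdia4 (0.958). These are the highest of 19938 values over only 8 groups that share arrays, and nothing is read from them.

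Other genes of the VEGF and angiopoietin pathways were counted beside the receptors, followed by further lists. Of all genes, 1.26% passed upwards and 0.577% downwards at day 6, 4.86% and 4.08% at day 8, and 7.49% and 10.4% at day 12. The count of every list is to be read beside these shares, and a count near them says nothing particular about its list. Of the 26 list genes chosen by the smallest p that passed at day 8, all 26 lost their calls in the fit of the day 8 arrays alone (limma adjusted p from 0.11 to 0.257). Of 12 measured ligands and partner receptors, 2 passed upwards at day 6, 5 at day 8 and 2 at day 12, and 0 passed downwards at any day. Nrp1 encodes a neuropilin, the co-receptor that binds VEGF beside VEGFR2. At day 6 it had 10.75, 9.56 and 10.34 in treated EBs, against 8.92, 7.39 and 8.59 in untreated EBs (1.92, SE 0.34, limma adjusted p = 0.00311), with no overlap, as in Kdr. Nrp2 was also higher at day 6 (0.71, adjusted p = 0.0266). At day 8 the VEGFR1 ligand Pgf was higher by 0.87 (1.83-fold, adjusted p = 0.00156) and the TIE2 ligand Angpt2 by 0.71, with 7.94, 7.01 and 7.94 in treated EBs, against 7.02, 6.85 and 6.89 in untreated EBs. Angpt1, Vegfc and Nrp2 made up the 5, and Vegfa itself had a difference of 0.10. The median difference at day 8 was 0.61. The count at day 8 was 8 with the replicate block within day, 1 without treated replicate 1, 1 without untreated replicate 2, 2 without treated replicate 3 and 8 without treated replicate 2. Angpt2 lost its call without any 1 of the first 3 of these arrays. At day 6 the count was 1 without treated replicate 1 or 3 or untreated replicate 2, the call lost being that of Nrp2. At day 12 it was 0 without treated replicate 1 or 3, 1 without any 1 untreated array and 4 with the block.

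At day 8 endothelial transcription factors other than Etv2 passed in both directions. Of 13 measured, 0 passed at day 6, and at day 8 Ets1 (0.51) and Elk3 (0.53), both ETS factors, were higher while Lmo2 (-0.56, adjusted p = 0.0152) and Hhex (-0.57, adjusted p = 0.00612) were lower, with limma. Lmo2 is a partner of the blood and vessel factor Tal1, and Hhex is a homeobox factor of early endothelium and endoderm. Hhex had 7.47, 7.42 and 7.64 in treated EBs at day 8, against 7.98, 7.98 and 8.30 in untreated EBs. Tal1 (-0.17), Erg (0.21) and Fli1 (0.62) did not pass. At day 12 Ets1 was higher (0.62) and Gata2 lower (-0.39), 1 of 13 genes each way, against 7.49% and 10.4% of all genes. The median at day 8 was -0.02, with 6 of 13 differences above 0 and 7 below. At day 12, 10 of 13 differences lay above 0 (median 0.15). There 6 genes lay wholly above, against 15.4% of all genes, and 2 wholly below. At day 6, 10 of 13 differences lay below 0 (median -0.13), and 3 genes lay wholly below, against 9.44% of all genes. At day 4, 10 of 13 also lay below 0 (median -0.11). Leaving out treated replicate 1, treated replicate 3, untreated replicate 2 or untreated replicate 3 left 0 genes higher at day 8, and 1 or 2 lower, and the higher genes were 4 without untreated replicate 1 or treated replicate 2. Lmo2 lost its call without untreated replicate 1, untreated replicate 3 or treated replicate 3. Gata2 at day 12 lost its call without any 1 array other than treated replicate 2.

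Of 25 measured genes of the endothelial junction and surface, 0 were higher and 1 was lower at day 6, 4 were higher and 0 lower at day 8, and 1 was higher at day 12. The gene lower at day 6 was Ramp2 (-0.46, limma adjusted p = 0.0193), the partner of the adrenomedullin receptor. At that day 18 of 25 differences lay below 0 (median -0.13). In 8 genes all treated arrays lay below all untreated ones and in 1 gene above, against 9.44% and 12.1% of all genes. At day 8 Emcn, the sialomucin endomucin, had 8.79, 6.49 and 8.59 in treated EBs, against 7.18, 5.63 and 6.48 in untreated EBs (1.53, SE 0.39, adjusted p = 0.0172). It had the same low replicate 2 in both arms as the 6 plotted genes. Adgrf5 (0.99, adjusted p = 0.00201) and Adgrl4 (1.12, adjusted p = 0.00937), both adhesion receptors of endothelium, and Esam (0.68), a junction protein, completed the 4. The median at day 8 was 0.16, with 20 of 25 differences above 0. The count was 8 higher and 1 lower with the replicate block within day. It was 1 without treated replicate 1, treated replicate 3 or untreated replicate 2, 8 without untreated replicate 1 and 11 without treated replicate 2. Emcn and Adgrl4 lost their calls without any 1 of the first 3 of these arrays, and Adgrf5 kept its own with any 1 array left out. Ramp2 at day 6 lost its call without treated replicate 1 or 3 or untreated replicate 2 or 3, and the gene called at day 12, Lyve1, lost its own without treated replicate 3 or untreated replicate 2.

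Genes of arterial, venous and Notch identity went in both directions. Of 13 measured, 1 was higher at day 6, Cxcr4 (1.07), whose call was lost without treated replicate 1 or 3 or untreated replicate 2. Hey2 (1.08, limma adjusted p = 0.00423), a Notch target of arteries, and Unc5b (0.71, adjusted p = 0.00282), a netrin receptor of arteries and growing tips, were higher at day 8, and Notch1 (-0.49) and Jag1 were lower. Without treated replicate 1 or untreated replicate 2, 2 were still higher and 0 lower, without untreated replicate 3 1 was lower, and 4 were higher without treated replicate 2. At day 12, 1 was higher and 4 were lower, against 7.49% and 10.4% of all genes. Notch1 (-0.71) and Cxcr4 (-0.91) were among the lower ones, and without treated replicate 1 there were 0 higher and 2 lower. These genes are also used by neural and other progenitors, and in the same EBs 6 of 6 neural markers were lower at day 12. The part of other cells in these values was not tested.

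For endoglin, the receptors and Smads of its signalling chain were counted. Of 12 measured, 3 were higher at day 6 (Smad6, Smad1 and Id1), 4 at day 8 (Bmpr2, Smad6, Smad7 and Acvrl1) and 2 at day 12 (Tgfbr2 and Smad7), with 1 lower at day 12 (Id3). The shares of all genes that were higher were 1.26%, 4.86% and 7.49% at these days, and 10.4% were lower at day 12. Smad6, an inhibitory Smad that BMP signals induce, had 9.99, 9.01 and 9.52 in treated EBs at day 6, against 8.5, 8.15 and 8.38 in untreated EBs (1.16, SE 0.19, limma adjusted p = 0.00187), with no overlap. Eng itself had a difference of -0.13 at that day. At day 8 Bmpr2, the type II BMP receptor, had 11.64, 11.21 and 11.48 in treated EBs, against 11.06, 10.91 and 11.04 in untreated EBs (0.44, adjusted p = 0.00242). The median was 0.26 at day 6 and 0.23 at day 8. The count at day 6 was 1 without untreated replicate 2 and 2 without treated replicate 1 or 3. At day 8 it was 1 without untreated replicate 2, 2 without treated replicate 1 or 3, and 6 without treated replicate 2. At day 12, 1 was higher without treated replicate 1 or untreated replicate 3, and Id3 lost its call without treated replicate 1 or 3 or untreated replicate 1 or 2.

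Markers of other cell types that express some of the 9 genes were set beside them. Of 9 measured markers of Kdr-positive mesoderm, 7 were higher at day 6, 4 at day 8 and 5 at day 12, with 1 lower at day 12 and medians of 1.42, 0.87 and 0.89. Their mean signal at day 6 lay between 9.43 and 10.23 in treated EBs, against 7.87 to 8.60 in untreated EBs, without overlap, and at day 12 between 10.65 and 10.79, against 9.99 to 10.04. Kdr itself passed at days 6 and 12 and did not at day 8. Mesp1, Pdgfra and Gata4 had differences of 1.54, 1.42 and 1.23 at day 6. Leaving out 1 array left 6 to 9 of them higher at day 6. At day 8 the count was 7 with the replicate block within day, and it was 0 without treated replicate 1 or untreated replicate 2, 2 without treated replicate 3, 6 without treated replicate 2, and 2 higher and 1 lower with replicate 2 left out of both arms. At day 12 it was 7 with the block and 3 without treated replicate 1 or 3 or without any 1 untreated array, and Isl1, the gene that was lower, lost its call without treated replicate 1 or 3 or untreated replicate 2 or 3. The part of mesoderm outside the vessel lineage in the Kdr values was not tested.

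Mural cells, the pericytes and smooth muscle that wrap vessels, were read from 9 markers, of which 1 was higher at day 6, 3 at day 8 and 2 at day 12, with 1 lower at day 12. The shares of all genes that were higher were 1.26%, 4.86% and 7.49%, and 10.4% were lower at day 12. The pericyte genes Rgs5 (1.71 at day 6 and 1.30 at day 8, limma adjusted p = 0.000847 and 0.00376) and Pdgfrb (1.14 at day 8, adjusted p = 0.00316) were among the higher markers. The list's mean at day 8 lay between 9.72 and 10.22 in treated EBs, against 9.44 to 9.83 in untreated EBs, and the median difference was 0.22. The count at day 8 was 2 without any 1 of treated replicates 1 and 3 or untreated replicates 2 and 3. At day 12 it was 4 without treated replicate 2 and 1 without any other array, and Notch3, the gene that was lower, lost its call without treated replicate 3.

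Blood progenitors share Cd34, Eng and Etv2 with endothelium. Of 13 measured blood markers, 1 was higher at day 6 (Runx1), 1 was lower at day 8 (Myb, -0.74, limma adjusted p = 0.00662) and 2 were higher at day 12 (Kit and Spi1). The matching shares of all genes were 1.26%, 4.08% and 7.49%. The mean signal of the blood markers at day 8 was 8.18 and 8.84 in treated replicates 2 and 3, against 7.97 and 8.57 in the untreated ones, and in replicate 1 it was higher in untreated EBs. Replicate 2 was the lowest array of both arms here too, and the arms overlapped. The embryonic globin genes Hba-x (1.07) and Hbb-bh1 (0.63) did not pass. With the replicate block within day 3 blood markers were higher and 2 lower at day 8, and Myb lost its call without treated replicate 1. Without treated replicate 2 or untreated replicate 1, 3 were higher at day 8. Runx1 lost its call without any 1 array other than treated replicate 2, and at day 12 Spi1 lost its call without treated replicate 1 or any 1 untreated array. The part of blood cells in the Cd34 and Eng values was not tested.

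Pluripotency markers bear on Pecam1, which ES cells also carry. Of 11 measured, 0 were higher and 3 lower at day 8, and 7 were higher and 1 was lower at day 12, with medians of -0.49 and 0.77. Their mean signal at day 8 was 9.65, 10.80 and 10.13 in treated EBs, against 10.63, 10.78 and 10.55 in untreated EBs. At day 8 Pou5f1 had a difference of -0.82 (limma adjusted p = 0.0344), and 10 of the 11 differences lay below 0. The 3 calls were lost without treated replicate 1, treated replicate 3, untreated replicate 2 or untreated replicate 3, and 9 were lower without treated replicate 2. At day 12 Nanog (1.20) and Pou5f1 (1.16) were among the 7 that were higher, and the Pecam1 difference of 0.23 did not pass. With 1 array left out, 5 or 6 of them were higher at day 12. The part of ES cells in the Pecam1 values was not tested.

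**Figure D4:**
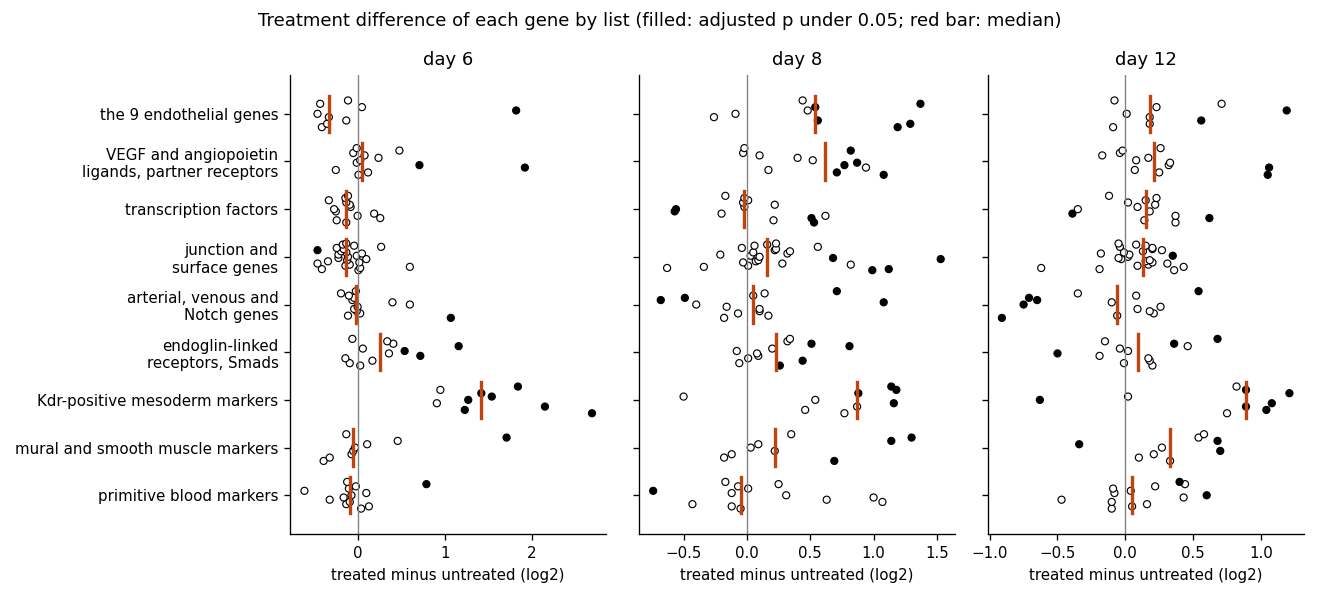
Treated minus untreated signal (log2) of every measured gene of the 9 endothelial genes and of 8 lists, at days 6, 8 and 12, with points filled where limma's adjusted p lay under 0.05 and a bar at the list's median. At day 6 the Kdr-positive mesoderm markers have a median of 1.42 and the 9 endothelial genes of -0.33, and at day 8 the medians are 0.87 and 0.54.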

How the data were processed

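The 24 arrays measured mRNA of 46C EBs in 8 groups of 3, grouped by the day and treatment in the labels. RMA and Affymetrix Expression Console are the tools that the submitters' processing notes name. Their versions and the genome build are not given in these sources. The authors' deposited values are on a log2 scale, as read from their range, and cover 35556 probe sets. Probe sets were named from the platform annotation: 21789 had 1 symbol, 1621 several and 12146 were not listed, and 21698 matched the GRCm38.p6 gene table with 0 symbols changed. The probe set with the highest mean was used for the 999 genes with several. Precision is limited by how many arrays there are, and a day 8 difference had a median SE of 0.092. The smallest SD between a pair of arrays was 0.121, so no array was taken for a copy of another.

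Fits used limma 3.58.1 in R 4.3.3 on all 24 arrays, each group having its own mean (residual degrees of freedom: 16), and Benjamini-Hochberg adjustment over 19938 genes within each of 15 comparisons at 0.05. The fit was tested on simulated data. Named genes were the 9 genes, from each of 12 lists the 4 with the smallest p over the treatment comparisons, and the 5 genes most like Kdr, Cdh5 and Pecam1 over group means; Vegfa, Vegfc, Angpt1, Tal1, Erg, Fli1, Gata2, Esam, Jag1, Smad7, Acvrl1, Id1, Id3, Mesp1, Pdgfra, Gata4, Hba-x, Hbb-bh1 and Lyve1 were named after their values were seen. Members and lists were chosen with earlier results of these data known.

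The correlation of same-numbered arrays' deviations from the group means was 0.297, 0.138 and 0.21 for numbers 1 to 3 at day 6. It was 0.479, 0.553 and 0.107 at day 8, and 0.118, 0.341 and 0.253 at day 12, all above the minimum of 0.1. At day 4 it was -0.014, 0.191 and -0.053, and the arrays were not taken as pairs, though both replicate blocks also cover day 4. Of unequal numbers, treated replicate 3 and untreated replicate 1 had 0.126 at day 8 and 0.264 at day 12, above the value of number 3. The remaining unequal numbers at days 6, 8 and 12 lay below 0.1. Alternatives were quantile normalisation, median centring, a filter at the 40th percentile, a trend with robust prior, array weights, 2 replicate blocks, the compared groups alone and each array left out. Leaving replicate 2 out of both arms of day 8 was chosen after seeing the data. Python 3.11.15 ran the tables (pandas 2.3.3) and the plots (matplotlib 3.10.9).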

Additional observations from a re-analysis of the deposited data

Results flagged for a closer look

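Of the 9 genes, 2 passed for a change of the treatment difference between neighbouring days, tested as an interaction with limma. None of these calls held under the trend with robust prior or in the fit of the compared groups alone. The Kdr call was lost in 11 of 21 alternatives. The difference of Kdr was larger at day 6 than at day 4 by 2.12, being 1.82 at day 6 and -0.30 at day 4. All 3 replicate numbers had a higher Kdr signal in treated EBs at day 6 (by 1.69, 2.33 and 1.43). At day 4, where arrays were not taken as pairs, the treated and untreated arrays of Kdr overlapped.

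The difference of Cd34 was larger at day 8 than at day 6 by 1.60, and then smaller at day 12 than at day 8, by -1.28. Treated minus untreated, it was positive in 0 of 3 replicate numbers at day 6 (-0.51, -0.31 and -0.42), in 3 of 3 at day 8 (1.24, 0.79 and 1.53) and in 1 of 3 at day 12 (0.02, -0.17 and -0.13). Both changes of Cd34 use the day 8 arrays. The call of the first was lost in 11 of 22 alternatives and that of the second in 9 of 22.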

How the results depend on the processing

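Over 135 pairs of a gene and a comparison, 2178 alternative values were computed: 2018 kept their side of the threshold, 84 no longer passed, 76 newly passed, and 0 changed sign with a call in either fit. Some of the 2018 changed sign with a call in neither fit, such as Flt1 at day 4, which ran from -0.37 to 0.07. Of the counts of genes that passed, these moved by over 1.5 times. With array weights, whose fitting gave a convergence warning, the count was 1 at day 4, 2 at day 6, 6 for the change from day 6 to day 8 and 4 for the change from day 8 to day 12. With the replicate block within day it was 2 at day 6, 6 for days 6 to 8 and 4 for days 8 to 12, and with the replicate block over all days it was 2 for days 6 to 8. Fitting only the compared groups gave 2 at day 6, 0 at day 8, 8 in the untreated course from day 4 to day 6, and 0 for all 3 changes between days. The trend with robust prior gave 0 for all 3 changes. Leaving replicate 2 out of both arms of day 8 gave 5 in the treated course from day 8 to day 12, 5 for the change from day 6 to day 8 and 3 for that from day 8 to day 12.

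Leaving out 1 array gave 0 to 6 genes at day 8 and 3 to 4 in the untreated course from day 4 to day 6. For the change from day 4 to day 6 it gave 0 to 1, the 0 coming without any 1 array of day 4, without untreated day 6 replicate 2, or without treated day 6 replicate 1 or 3. For the change from day 6 to day 8 it gave 0 to 5: 5 without treated day 8 replicate 2, 4 without untreated day 8 replicate 1, and 0 without treated day 6 replicate 1 or 3, any 1 untreated array of day 6, treated day 8 replicate 1 or 3, or untreated day 8 replicate 2 or 3. For the change from day 8 to day 12 it gave 0 to 4: 4 without treated day 8 replicate 2, and 0 without treated day 8 or day 12 replicate 1 or 3, untreated day 8 replicate 2, or untreated day 12 replicate 2 or 3. The cause of these moves was not tested, and no share of all genes is given for any alternative fit. Where a block is used, it changed no other call at the treatment comparisons than those of Cd34 at day 6, Tie1 at day 8 and Tek at day 12. No signal could be set against background.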

Other observations

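Further lists were read from the same EBs with limma, and the part of their cell types in the values of the 9 genes was not tested. Of 6 neural markers, 0 passed at day 6, 3 were lower at day 8 and 6 were lower at day 12, where the median was -1.15. At day 12 the treated minus untreated difference was -1.64 for Dcx, a protein of young neurons, and -1.39 for Map2, of neuronal dendrites. Without treated replicate 1 or untreated replicate 3, 5 were lower at day 12, and without treated replicate 1 or 3 or untreated replicate 2, 2 were lower at day 8.

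Of 10 megakaryocyte and macrophage markers, 0 passed at day 6, 1 was lower at day 8 (Cd68, which lost its call without any 1 array other than treated replicate 2) and 2 were higher at day 12, Adgre1 (0.72) and Csf1r (0.54). Their mean signal lay between 7.72 and 7.86 in treated EBs at day 12, against 7.36 to 7.75 in untreated EBs. Of 7 trophoblast markers, 2 were higher and 1 lower at day 6, 2 higher and 2 lower at day 8, and 3 higher at day 12. Plac1 was higher by 1.61, 1.86 and 0.91 at days 6, 8 and 12, and Cdx2 by 0.94, 0.89 and 0.82. Without treated day 6 replicate 1 or 3, 0 trophoblast markers passed at day 6, without untreated replicate 2 0 were higher, and without untreated replicate 3 1 was higher and 0 lower. At day 8, 1 was higher without treated replicate 1 or 3 or untreated replicate 2, and 0 were lower without treated replicate 1 or untreated replicate 2. At day 12 Plac1 lost its call under the trend with robust prior and without treated replicate 1 or 3 or untreated replicate 2 or 3.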
